A study of Mus musculus with 2 samples.

Results

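The genes of lipoprotein and lipid handling followed here across the cell classes of mouse brain were 9: Apoe, Apoc1, Lpl, Abca1, Abcg1, Trem2, Lrp1, Fabp5 and Plin2. They were taken by symbol from the gene lists of both libraries, and all 9 were found among the 29217 genes that the lists hold in total. The study profiled brains of Balb/c mice, cell by cell, in a model of breast cancer brain metastasis with 4T1, a mouse mammary carcinoma line of the triple-negative type, on the Singleron GEXSCOPE microfluidic chip. There was 1 library titled positive and 1 titled control. The labels disagree with each other: the treatment field of the titled control library names a 4T1 metastasis, and that of the titled positive library names its absence. The deposited cells held 5845 carcinoma-like cells in the titled positive library and 1 in the titled control library. Libraries are therefore called by their titles throughout, and no direction with or without metastasis is drawn. With 1 library per title no difference has a replicate check, no test was possible between them, and every interval below is an exact 95% interval that covers counting error only.

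Apolipoprotein E is the main lipid carrier protein of the brain, made largely by astrocytes and, in injury and disease, by microglia and macrophages. Particles carrying it are loaded with cholesterol by the exporters ABCA1 and ABCG1 and taken up by receptors such as LRP1, and TREM2, a lipid-sensing receptor of microglia and some macrophages, binds lipids and apolipoproteins. Lipoprotein lipase frees fatty acids from lipoproteins, FABP5 carries fatty acids inside the cell, and perilipin 2 coats the droplets in which surplus lipid is stored.

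Apoe lies on the minus strand of chromosome 7 at 19696109 to 19699188 (GRCm38), and Apoc1 lies on the same strand at 19689481 to 19692660, with a gap of 3448 bases between the pair. Trem2 lies on the plus strand of chromosome 17 at 48346401 to 48354147 and Abcg1 on the same strand at 31057675 to 31117988. Abca1 and Plin2 lie on the minus strand of chromosome 4, at 53030787 to 53159895 for Abca1 and 86648386 to 86670060 for Plin2. Lpl lies on chromosome 8 at 68880491 to 68907448, Lrp1 on chromosome 10 at 127538161 to 127621148 and Fabp5 on chromosome 3 at 10012548 to 10016607. The 250 bases upstream of the annotated starts of Apoe and Trem2 are shown because these genes had the members' most deeply counted differences between the microglia-like cells of the libraries, in opposite directions. Both are written 5′ to 3′ on the gene's own strand, from RefSeq promoter windows on GRCm38.p6, at chr7:19699189-19699438 for Apoe and chr17:48346151-48346400 for Trem2. Capitals mark TGACCT, the nuclear receptor half-site on either strand.
Apoe upstream: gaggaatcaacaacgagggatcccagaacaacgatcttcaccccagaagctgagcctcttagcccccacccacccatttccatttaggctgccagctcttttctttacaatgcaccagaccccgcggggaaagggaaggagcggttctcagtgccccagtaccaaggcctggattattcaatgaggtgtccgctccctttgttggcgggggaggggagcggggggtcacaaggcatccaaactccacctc
Trem2 upstream: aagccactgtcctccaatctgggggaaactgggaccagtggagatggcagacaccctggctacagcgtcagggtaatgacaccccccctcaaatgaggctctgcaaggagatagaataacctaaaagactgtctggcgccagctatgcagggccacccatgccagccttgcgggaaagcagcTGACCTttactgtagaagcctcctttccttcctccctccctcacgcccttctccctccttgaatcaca
The half-site occurred in 16.3% of all 32851 promoter windows of 300 bases, so its match upstream of Trem2 is a description and not a site. Apoe had none of the 6 motifs searched in this window, which says only that these letters are not in it. The motifs, on both strands, were TGACCT, its direct repeats with 4 and with 1 base between copies, CACGTG, GAGGAAGT and TATAAA. Promoter windows were matched for 5 of the 9 members. Another RefSeq window of Apoe, at chr7:19698572-19698871, held TATAAA on both strands, a motif found in 13.6% of all windows.

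The titled positive library held 10842 cell barcodes and 98141261 unique molecular identifiers (UMIs, counts of captured RNA molecules), and the titled control library held 10417 barcodes and 55657687 UMIs. The median cell had 7384 UMIs in the titled positive library and 4230 in the titled control library, so shares of cells with a UMI are given after thinning each cell to 2000 UMIs. The libraries shared 149 cell barcodes. After filters, 10537 cells remained in the titled positive library and 9806 in the titled control library. Clusters were named by marker lists as microglia-like (646 titled positive and 2369 titled control cells), monocyte or macrophage-like (2250 titled positive and 221 titled control cells) and oligodendrocyte-like (839 titled positive and 3552 titled control cells). There were 99 titled positive and 545 titled control endothelial cell-like cells and 241 titled positive and 52 titled control T cell-like cells, and these 5 classes were compared between libraries. Astrocyte-like cells numbered 16 in the titled positive library and 1912 in the titled control library, so the astrocyte source was described in the titled control library alone. Levels are given as CPM, a gene's UMIs in a class over the class total, scaled to the usual total, and a difference of at least 2-fold with at least 10 UMIs in the library of the higher level is called higher or lower. A gene's level was set against an estimate of free RNA, the RNA of broken cells that is counted in every droplet, read from markers of other cell types in the same class.

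In microglia-like cells, 3 of the 9 genes were at least 2-fold higher in the titled positive library, namely Apoe, Apoc1 and Plin2, against 10.7% of the 13335 genes compared. Trem2 was the only one of the 9 at least 2-fold lower, against 28% of all genes. Apoe stood at 27909 CPM in titled positive cells, with an interval of 27737 to 28081, and at 8030.2 CPM in titled control cells, with an interval of 7971 to 8089. Trem2 stood at 615 CPM in titled positive cells and 2227 CPM in titled control cells. The lipid carrier was thus 3.48-fold higher and the lipid-sensing receptor 3.62-fold lower in the same cells. The median gene with at least 50 UMIs in both sums differed by −0.13 on the log2 scale, so these ratios are little moved by centring. The classes came from different clusters, since the titled positive cells formed 1 cluster led by Ccl12, Cx3cr1 and Cd36 and most titled control cells formed 1 led by Siglech, Cx3cr1 and P2ry12. The 10 microglia markers were all counted in both libraries, and they summed to 4979 CPM in titled positive cells and 30386 CPM in titled control cells. The 12 monocyte or macrophage markers summed to 3999 CPM in titled positive and 1245 CPM in titled control microglia-like cells, and the 10 carcinoma markers to 1178 CPM in titled positive and 2.15 CPM in titled control cells. The part of these marker differences in the results on microglia-like cells was not tested.

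**Figure D1:**
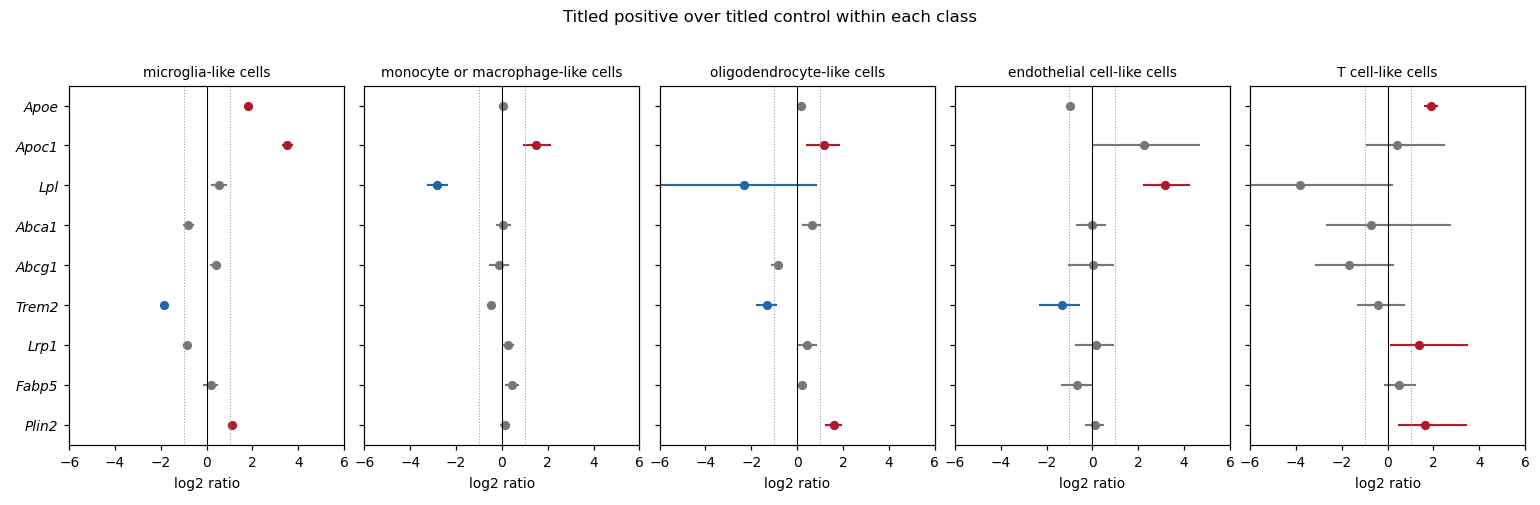
Log2 ratio of titled positive over titled control CPM for each of the 9 genes in the 5 compared classes, with exact 95% counting intervals as bars and dotted lines at 2-fold. Points past the lines with enough UMIs are coloured by direction, and in microglia-like cells Apoe, Apoc1 and Plin2 lie above the upper line and Trem2 below the lower one.

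Among the apolipoproteins, Apoe was counted in nearly every cell of its 3 sources. Ranked over the 18 class sums with at least 50 cells, its highest level was in titled positive microglia-like cells. Monocyte or macrophage-like cells followed, at 21406 CPM (21329 to 21483) in the titled positive library and 20464 CPM (20206 to 20724) in the titled control library. Titled control astrocyte-like cells came next, at 19688 CPM (19587 to 19790), and titled control microglia-like cells stood at 8030.2 CPM. None of these 5 neighbouring levels had overlapping counting intervals, although those of titled control macrophage-like and astrocyte-like cells differed by only 1.04-fold. The order of the macrophage-like classes rests on a log2 ratio of 0.065, which changed sign under 5 of 12 other settings and lay between −0.16 and 0.23, so their order is not settled. In the titled control library, astrocyte-like cells held 2.45-fold and monocyte or macrophage-like cells 2.55-fold the Apoe level of microglia-like cells. In the titled positive library monocyte or macrophage-like cells had 0.767 times the microglial level, so the order of these myeloid classes was the opposite one.

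Per cell, thinned to 2000 UMIs, the middle of the distribution moved with the class sum. The median titled positive microglia-like cell held 52 Apoe UMIs, with quartiles of 34 and 73, and the median titled control microglia-like cell held 11, with quartiles of 4 and 20. The lower quartile of the titled positive cells lay above the upper quartile of the titled control cells. Monocyte or macrophage-like cells differed in spread more than in middle: the median was 34 in titled positive cells, with quartiles of 19 and 55, and 27 in titled control cells, with quartiles of 6 and 80. The titled control astrocyte-like cells were the most even source, with a median of 40 and quartiles of 29 and 54.

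**Figure D2:**
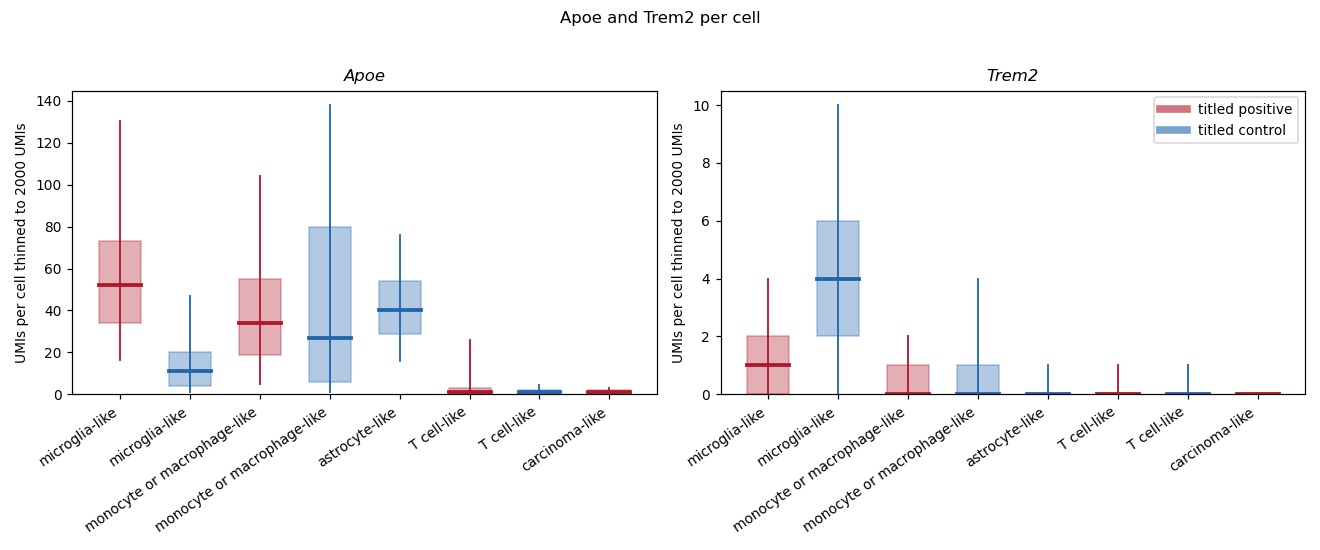
Apoe and Trem2 UMIs per cell after thinning to 2000 UMIs, by class and library, with boxes at the quartiles, a line at the median and whiskers at the 5th and 95th percentiles. The Apoe box of titled positive microglia-like cells (34 to 73) lies above that of titled control microglia-like cells (4 to 20), and the Trem2 box of titled positive cells (0 to 2) lies below that of titled control cells (2 to 6).

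Outside these sources most Apoe levels could not be told apart from free RNA. The estimate is the median over the marker lists of other types, and single lists gave values far from it in some classes. Titled control ependymal cell-like cells, which line the ventricles, had 3672 CPM against an estimate of 741 CPM (347 to 2378 over lists) and so lay above that of every list. Carcinoma-like cells had 492 CPM against 768 CPM (599 to 2512) and lay under that of every list. T cell-like cells had 2068 CPM in the titled positive library, where the estimate was 2062 CPM (643 to 3003), and 559 CPM in the titled control library, where it was 761 CPM (250.8 to 19618). Endothelial cell-like cells had 1218 CPM in the titled positive library, against 2113 CPM (877 to 8968), and 2404 CPM in the titled control library, against 949.9 CPM (526 to 19356). The T cell-like and endothelial cell-like levels lie inside the range over lists, so the T cell ratio of 3.69-fold, higher in the titled positive library, is not read as a difference in expression. In the microglia-like cells the estimate was 804 CPM (700.4 to 1128) in the titled positive and 721 CPM (428 to 1260.1) in the titled control library, far under the measured levels there.

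Apoc1, which encodes a small apolipoprotein that slows receptor uptake of lipoproteins, had its highest level in the same cells as Apoe. It stood at 374 CPM (354 to 394) in titled positive and 32.5 CPM (28.9 to 36.5) in titled control microglia-like cells, 11.5-fold higher in the titled positive library. A UMI of it was found in 32.0% of thinned titled positive cells, with an interval of 28.5 to 35.8%, and in 3.25% of titled control cells, with an interval of 2.57 to 4.05%. No other class came near the titled positive microglial level: the next was the titled control ependymal cell-like class at 79.6 CPM, whose interval overlapped that of titled positive monocyte or macrophage-like cells at 67.7 CPM. In the macrophage comparison Apoc1 was 2.80-fold higher in the titled positive library, at 67.7 CPM in titled positive cells and 23.8 CPM in titled control cells, where it had 28 UMIs. Astrocyte-like cells, a main Apoe source, held 33.8 CPM of Apoc1, a level whose interval overlapped that of titled control microglia-like cells.

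The receptors followed another order. Trem2 was highest in titled control microglia-like cells, at 2227 CPM (2196 to 2258), then in titled positive microglia-like cells, at 615 CPM (590 to 641). Monocyte or macrophage-like cells had 307 CPM (298 to 317) in the titled positive library and 425 CPM (389 to 464) in the titled control library. These 4 intervals did not overlap, and the ratio of microglia-like cells between libraries was −1.86 on the log2 scale (−1.92 to −1.79). The ratio in monocyte or macrophage-like cells was −0.47 (−0.60 to −0.33) and short of 2-fold. A Trem2 UMI was found in 64.2% (60.4 to 67.9%) of thinned titled positive microglia-like cells and in 94.9% (94 to 95.8%) of titled control ones. In monocyte or macrophage-like cells the shares were 40.6% in the titled positive library and 39.8% in the titled control library, with overlapping intervals. T cells are not known for Trem2, and T cell-like cells had shares of 6.22% among titled positive and 9.62% among titled control cells. The oligodendrocyte-like level, 12.1 CPM in titled positive and 30.2 CPM in titled control cells, lay under the free RNA estimates of 13.7 CPM in titled positive and 44.9 CPM in titled control cells, so the 2.48-fold lower value there is read as background.

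Lrp1, the large endocytic receptor for Apoe-bearing particles, was broad. It was highest in titled control microglia-like cells at 378 CPM (365 to 391), with an overlapping interval in titled positive fibroblast-like cells at 334 CPM (291 to 381). Titled control astrocyte-like cells followed at 237 CPM (226 to 249), which also lay above the intervals of all the remaining class sums. Titled positive microglia-like cells had 207 CPM and titled control ones 378 CPM, a log2 ratio of −0.87 (−0.98 to −0.75) that stayed inside 2-fold. Monocyte or macrophage-like cells had 201 CPM in the titled positive and 169 CPM in the titled control library, a ratio of 0.25 (0.05 to 0.47). Endothelial cell-like and oligodendrocyte-like cells of both libraries lay at 22.9 CPM or lower.

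Lpl, the lipase that splits lipoprotein triglyceride, was counted thinly, with 360 UMIs in the titled positive library and 470 in the titled control library, and its ratios ran in opposite directions in different classes. In monocyte or macrophage-like cells it was 7.01-fold lower in the titled positive library, at 9.22 CPM from 129 UMIs, against 64.5 CPM from 76 UMIs in the titled control library. In endothelial cell-like cells it was 9.09-fold higher in the titled positive library, at 42.0 CPM from 33 UMIs in 99 cells, against 4.53 CPM from 14 UMIs in 545 titled control cells. In microglia-like cells it stood at 39.2 CPM (33.0 to 46.2) in the titled positive and 27.2 CPM (23.9 to 30.9) in the titled control library, a log2 ratio of 0.53 (0.22 to 0.83) inside 2-fold, which passed 2-fold (1.04) with each cell named by its own markers. For Lpl, free RNA was put at 1.69 CPM (0.701 to 7.17 over lists) in titled positive endothelial cell-like cells. In titled control ones it was put at 1.5 CPM (0.831 to 30.6 over lists). The titled positive level lay above its range. The titled control level lay inside its range, whose top comes from a list at 333% of the library level. The size of the endothelial fold is therefore uncertain. The 12 monocyte or macrophage markers summed to 1850 CPM in titled positive and 636 CPM in titled control endothelial cell-like cells. Neutrophil markers summed to 7589 CPM in titled positive and 39.2 CPM in titled control ones, and carcinoma markers to 1475 CPM in titled positive and 2.27 CPM in titled control ones. The part of these markers in the endothelial value was not tested. The highest Lpl level of any class sum was that of titled control smooth muscle cell-like cells, 87.3 CPM (64.8 to 115), whose interval overlapped that of titled control monocyte or macrophage-like cells. Astrocyte-like cells had 1.09 CPM, at the free RNA estimate of 1.26 CPM. Oligodendrocyte-like cells had 0 UMIs in the titled positive library, which allows up to 0.671 CPM, and 13 UMIs or 0.540 CPM in the titled control library, so no fold is given.

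Neither cholesterol exporter was called higher or lower between the libraries in any of the 5 compared classes, and in T cell-like cells both had too few UMIs for a call. Abca1, which loads lipid-poor apolipoproteins, was highest in titled control microglia-like cells at 134 CPM (126 to 141). The monocyte or macrophage-like classes of the libraries, titled control astrocyte-like cells and titled positive microglia-like cells lay together between 76.8 and 87.8 CPM, with each neighbour's interval overlapping the next. Abca1 in microglia-like cells was lower in the titled positive library by a log2 ratio of −0.80 (−0.99 to −0.61), inside 2-fold. Abcg1, which exports cholesterol to formed lipoproteins, was highest in titled positive microglia-like cells at 80.7 CPM (71.7 to 90.5). Titled control oligodendrocyte-like cells followed with an overlapping interval at 75.1 CPM (71.6 to 78.6), and they supplied 68.3% of all Abcg1 UMIs of the titled control library. The titled positive oligodendrocyte-like cells had 41.4 CPM (35.6 to 47.8), a log2 ratio of −0.85 (−1.08 to −0.64) inside 2-fold. Free RNA for Abcg1 was put at 2.39 CPM (2.04 to 97.9 over lists) in titled positive oligodendrocyte-like cells. In titled control ones it was put at 5.18 CPM (2.28 to 31.0). The titled positive level lay inside its range and the titled control level above its range. The highest titled positive list stood at 721% of the library level, which cannot be free RNA alone. The top of that range therefore sets no bound. In astrocyte-like cells Abca1 was at 79.9 CPM, above a free RNA estimate of 6.81 CPM (4.24 to 14.8 over lists). Abcg1 there was at 6.02 CPM (4.37 to 8.08), inside the range of its estimate of 7.10 CPM (4.41 to 15.4), and could not be told apart from it.

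**Figure D3:**
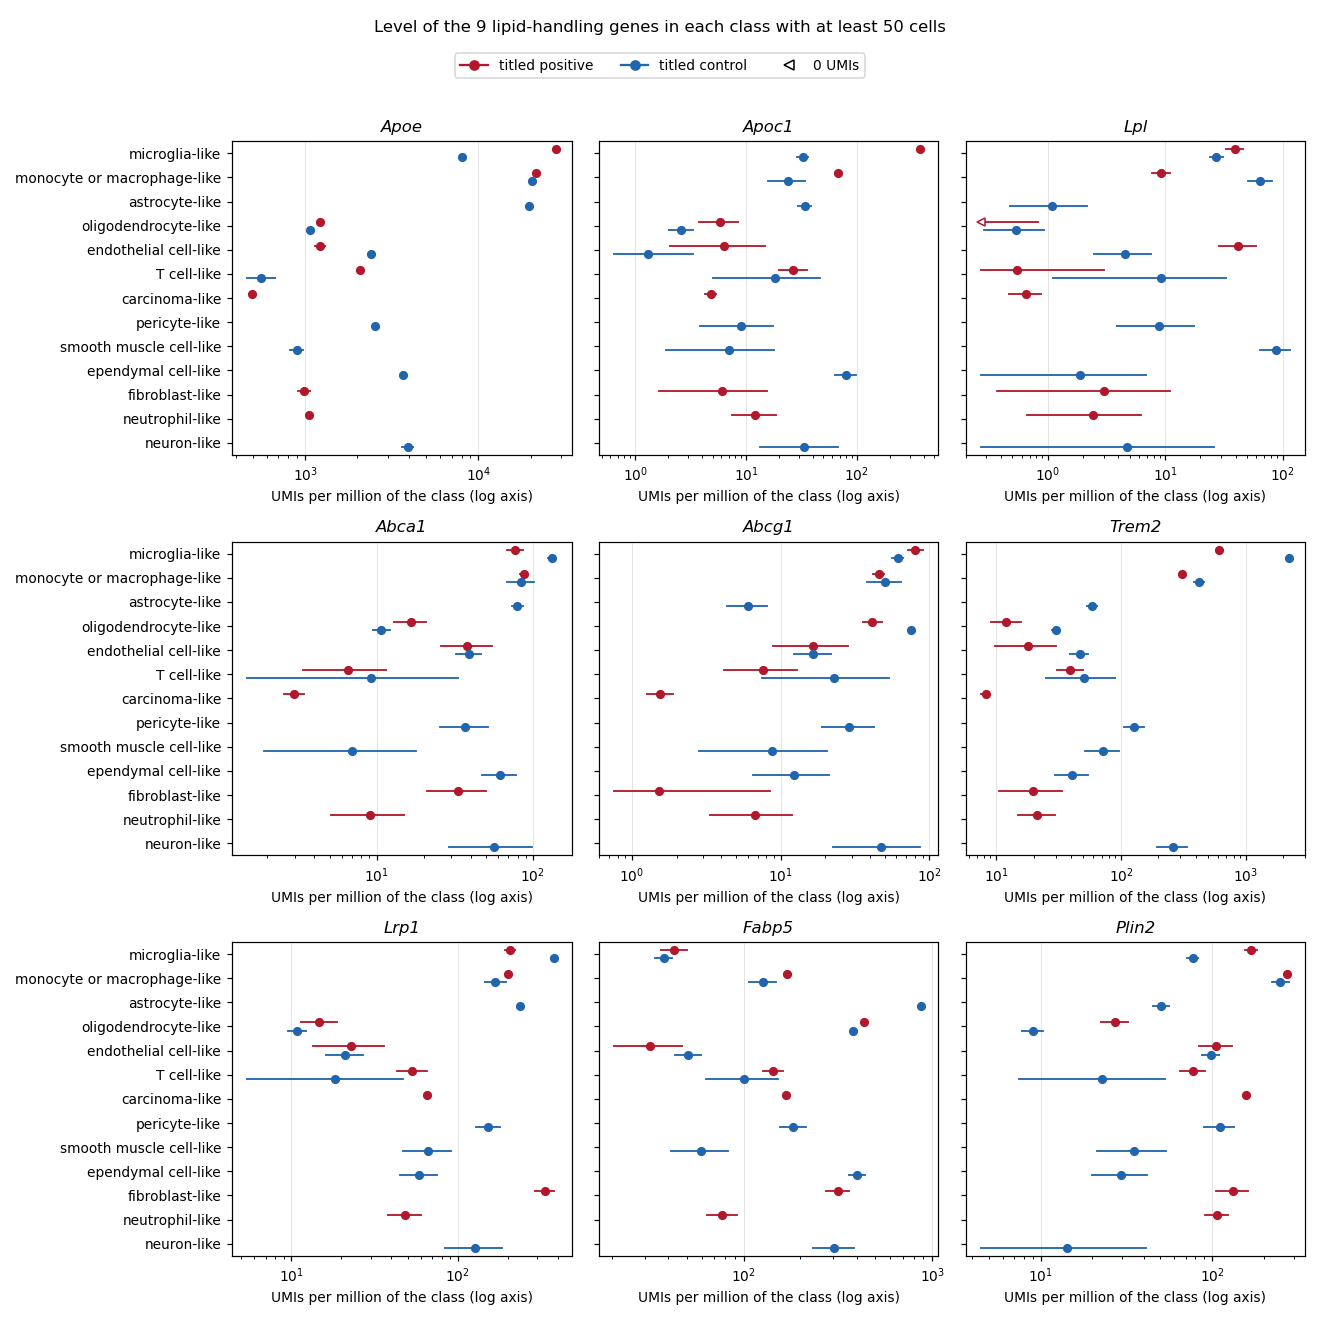
CPM of each gene on a log axis in every class with at least 50 cells in a library, with exact 95% counting intervals, cut at the left edge where they reach further, and titled positive above titled control; an open triangle marks 0 UMIs. Apoe, Abca1 and Lrp1 are high in microglia-like, macrophage-like and astrocyte-like cells, and Lrp1 also in titled positive fibroblast-like cells at 334 CPM. Astrocyte-like cells have 873 CPM of Fabp5. Their 58.4 CPM of Trem2 and 1.09 CPM of Lpl are under the free RNA estimates of 61.5 CPM for Trem2 and 1.26 CPM for Lpl.

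Fabp5, the fatty acid carrier, was highest in the classes of macroglia. Its top level was in titled control astrocyte-like cells, 873 CPM (851 to 894), and a UMI was found in 69.8% (67.7 to 71.8%) of them after thinning. Oligodendrocyte-like cells followed, at 437 CPM (417 to 456) in the titled positive and 382 CPM (374 to 390) in the titled control library, and titled control ependymal cell-like cells lay between them at 400.1 CPM (363 to 440.2), with an interval that overlapped both. The microglia-like level was 42.8 CPM in titled positive cells, where free RNA was put at 29.4 CPM, and 37.7 CPM in titled control cells, where it was put at 43.0 CPM. A microglial level was therefore not detectable above background in the titled control cells. Carcinoma-like cells had 168 CPM (165 to 172), and by their number supplied 66.1% of the titled positive library's Fabp5 UMIs. Near-identical processed copies of Fabp5 lie elsewhere in the mouse genome, and the counting step could split reads between them, so its counts are uncertain.

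Plin2, the droplet coat protein, was highest in monocyte or macrophage-like cells, at 275 CPM (266 to 284) in the titled positive library and 250.3 CPM (222 to 281) in the titled control library, with overlapping intervals. In microglia-like cells it was 2.18-fold higher, at 168 CPM (155 to 182) in titled positive cells and 77.1 CPM (71.5 to 83.1) in titled control cells. The share of thinned microglia-like cells with a UMI was 26.9% (23.5 to 30.5%) in the titled positive and 11.7% (10.4 to 13%) in the titled control library. The free RNA estimate there was 27.7 CPM in the titled positive and 5.37 CPM in the titled control library. Carcinoma-like cells had 157 CPM (154 to 160), a level whose interval overlapped that of titled positive microglia-like cells. In oligodendrocyte-like cells Plin2 was at 27.1 CPM in the titled positive library, where free RNA was put at 28.9 CPM, so the 3.02-fold higher value over the titled control level of 8.98 CPM is read as background.

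The sources of each gene's RNA in a library depend on its level and on the cells captured. Of all Apoe UMIs of the titled positive library, monocyte or macrophage-like cells held 66.5%, microglia-like cells 22.4% and carcinoma-like cells 7.05%, the last at a level under the free RNA estimate. Of those of the titled control library, astrocyte-like cells held 48.3%, microglia-like cells 23.9%, oligodendrocyte-like cells 8.66% and monocyte or macrophage-like cells 8.11%. Trem2 came for 58.8% from monocyte or macrophage-like and 30.4% from microglia-like cells in the titled positive library, and for 86.1% from microglia-like cells in the titled control library. Plin2 came for 65.5% from carcinoma-like cells in the titled positive library, while its first titled control source was the microglia-like class with 30.8%. Class sizes are what was captured and called as cells, and set these shares.

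**Figure D4:**
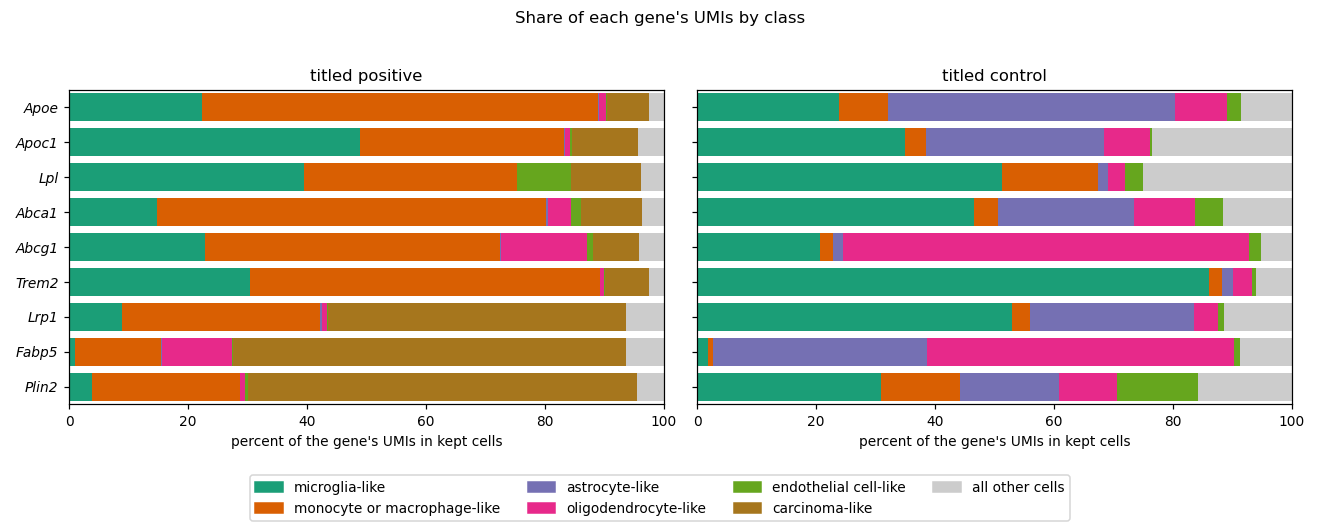
Share of each gene's UMIs by class in each library, titled positive left of titled control, stacked to 100%. In the titled positive library 66.5% of Apoe came from monocyte or macrophage-like cells, and in the titled control library 48.3% came from astrocyte-like cells.

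In the other 4 classes fewer differences could be read. In monocyte or macrophage-like cells 1 of 9 genes was at least 2-fold higher, Apoc1, against 15.1% of all genes, and 1 was at least 2-fold lower, Lpl, against 15.7%. Apoe there differed by 0.06 on the log2 scale (0.05 to 0.08), Abca1 by 0.06 (−0.23 to 0.37) and Plin2 by 0.13 (−0.04 to 0.31). Fabp5 differed by 0.43 (0.20 to 0.69), with its titled control level of 126 CPM inside the range of its free RNA estimate (24.0 to 136 CPM over lists). The median gene differed by −0.16 in this class, and the 12 macrophage markers summed to 15298 CPM in titled positive and 33562 CPM in titled control cells. Here too the classes came from different clusters. One cluster held 1012 titled positive and 5 titled control cells and another 1237 titled positive and 3 titled control cells. The part of this difference in the results on this class was not tested. In oligodendrocyte-like cells 2 of 9 were higher, Apoc1 and Plin2, against 14.7% of all genes, and 2 were lower, Trem2 and Lpl, against 19.7%. All of these were at low levels close to or under the free RNA estimate of 1 or both libraries, and Lpl is counted there through the pseudocount alone. The 10 endothelial cell markers summed to 9906 CPM in titled positive and 168 CPM in titled control oligodendrocyte-like cells, a difference whose part in these values was not tested. In endothelial cell-like cells 1 of the 8 genes with enough UMIs was higher, Lpl, against 7.63%, and 1 was lower, Trem2, against 19.9%. The Trem2 levels there, 17.8 CPM in titled positive and 46.6 CPM in titled control cells, were under their free RNA estimates of 34.3 CPM in titled positive and 73.1 CPM in titled control cells. In T cell-like cells Apoe, Lrp1 and Plin2 were at least 2-fold higher among 6 genes with enough UMIs, against 28.5% of all genes, and none was at least 2-fold lower, against 9.51%. With doublets kept, the log2 ratio there was 0.68 for Apoe and 0.064 for Lrp1, so both lost their call. That of Plin2 was under 2-fold with each cell named by its own markers (0.87) and turned to −0.91 with estimated free RNA subtracted. Carcinoma markers summed to 5053 CPM in titled positive and 4.58 CPM in titled control T cell-like cells, and their part in these ratios was not tested.

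Set against microglia-like cells of the same library, the other sources stood apart by different genes. Titled positive monocyte or macrophage-like cells had more Fabp5, by 3.98-fold, as 9.3% of all genes were at least 2-fold higher. They had 5.52-fold less Apoc1, 4.25-fold less Lpl and 2-fold less Trem2, as 6.13% of all genes were lower. In the titled control library the same comparison had 4 genes higher, against 9.68% of all genes, namely Apoe, Lpl, Fabp5 and Plin2 by 3.25-fold. Since titled control microglial Fabp5, 37.7 CPM, lay under its free RNA estimate, no fold over it is given. Trem2 was 5.24-fold and Lrp1 2.23-fold lower there, against 17.3%. Lpl and Apoe therefore lay on opposite sides of the microglial level in the libraries, while Trem2 kept its side. Titled control macrophage-like Fabp5, 126 CPM, lay inside the range of its free RNA estimate, 24.0 to 136 CPM over lists. No side is read for Fabp5 in that library. Astrocyte-like over microglia-like cells had 2 genes higher, Fabp5 and Apoe, against 30.1% of all genes, and 3 lower, Trem2, Lpl and Abcg1, against 23.9%. The astrocyte levels of those 3 were under their free RNA estimates, which for Trem2 stood at 61.5 CPM, so no fold is given for them. Astrocyte-like over monocyte or macrophage-like cells had 1 higher, Fabp5, against 35.2%, and 4 lower, the same 3 and Plin2 by 4.96-fold, against 18.5%. No fold is given for Fabp5 over that macrophage-like level. Microglia-like over oligodendrocyte-like cells of the titled control library had 7 genes higher, against 30.3%, and Fabp5 lower, against 24.1%, with Abcg1 between. The oligodendrocyte levels of those 7 lay inside the ranges of their free RNA estimates, which for Apoe ran from 257 to 3490 CPM over lists. No fold is given for them. Carcinoma-like over titled positive microglia-like cells had 1 gene higher, Fabp5 by 3.92-fold, against 29.3%, and 7 lower, against 14.9%, with Plin2 between. Apoe and Trem2 were among the lower ones, and their carcinoma levels of 492 CPM for Apoe and 8.24 CPM for Trem2 were under the free RNA estimates of 768 CPM for Apoe and 12.5 CPM for Trem2. Over titled positive monocyte or macrophage-like cells they had 0 genes higher, against 29.1%, and 7 lower, against 16.8%, with Fabp5 and Plin2 between.

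Within classes the clusters spread the 9 genes unevenly. Titled control macrophage-like cells split into a cluster of 59 cells led by Ms4a7, Pf4 and Mrc1, genes of resident border macrophages, and others led by Ly6c2 and Plac8 (31 cells), by Ear2 and Treml4 (46 cells) or by class II genes such as H2-Eb1 and Cd74 (51 cells). Ms4a7 was also a leading gene of the class II cluster. Both Ms4a7 and Mrc1 were leading genes of a titled positive cluster of 1237 cells, so these genes are not particular to the 59 cells. Apoe was at 46361 CPM in the Pf4 and Mrc1 cluster, 30393 CPM in the class II cluster, 6451 CPM in the Ly6c2 cluster and 3311 CPM in the Ear2 cluster. Trem2 was also higher in the Pf4 and Mrc1 cluster (757 CPM) and the class II cluster (779 CPM), with overlapping intervals, than in the Ly6c2 cluster (192 CPM) and the Ear2 cluster (56.4 CPM). Plin2 ran the other way, at 217 CPM in the Pf4 and Mrc1 cluster, 176 CPM in the class II cluster, 384 CPM in the Ly6c2 cluster and 508 CPM in the Ear2 cluster. The close class levels of Apoe in the libraries thus covered a wide span among titled control clusters.

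Titled positive monocyte or macrophage-like cells fell into a cluster of 1237 cells led by Ccl8, Mrc1 and C1qa and one of 1012 cells with Ccr2 and Chil3 among its leading genes. Apoe was at 25725 CPM in the Ccl8 cluster and 14012 CPM in the Ccr2 cluster. Fabp5 was 2.63-fold higher in the Ccl8 cluster, at 222 CPM, against 84.4 CPM in the Ccr2 cluster, and Apoc1 2.11-fold higher, against 5.28% of all genes. Free RNA of the whole class was put at 31.3 CPM for Fabp5 (25.1 to 99.3 over lists). The Ccr2 cluster's level lay inside that range, so the size of this fold is uncertain. No member was at least 2-fold lower, against 2.99% of all genes, and Plin2 was at 249 CPM in the Ccl8 cluster and 319 CPM in the Ccr2 cluster. Set against the titled control Pf4 and Mrc1 cluster, the Ccl8 cluster had 3.91-fold more Fabp5 and 2.13-fold more Apoc1, against 20% of all genes. It had 5.64-fold less Lpl, 2.37-fold less Trem2 and 2.23-fold less Abca1, against 12.8%. Fabp5 in the Pf4 and Mrc1 cluster was at 55.1 CPM from 16 UMIs, where free RNA of the whole class was put at 57.1 CPM. Abca1 in the Pf4 and Mrc1 cluster, 234 CPM (182 to 297) from 68 UMIs, was above its level in every class sum.

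Titled control microglia-like cells held a small cluster of 78 cells led by Cxcl13, Ch25h and Cd72 beside the main one of 2247 cells. The small cluster's marker score, the mean log2 level of a marker list over a reference, was 4.31 for microglia and 2.97 for monocyte or macrophage. Cxcl13 and Cd72 were also leading genes of a monocyte or macrophage-like cluster of 10 cells, and Ch25h and Cd72 of one of 16 cells. Lpl was 6.25-fold higher in the small cluster, at 125 CPM (94.4 to 163) from 55 UMIs, against 20.2 CPM (17.2 to 23.5) in the main cluster. Apoc1 was 2.01-fold higher, and Trem2 was 2.67-fold lower, at 884 CPM in the small and 2363 CPM in the main cluster. Lrp1 and Abcg1 were also at least 2-fold lower. All genes gave 5.29% higher and 18.0% lower. Another cluster, of 43 cells led by Ube2c, Mki67 and Top2a, genes of dividing cells, had 888 CPM of Trem2, 6427 CPM of Apoe and 61.1 CPM of Lpl (38.8 to 91.7) from 23 UMIs. Its marker score was nearly tied, at 4.34 for microglia and 4.11 for monocyte or macrophage. Titled positive microglia-like cells over the main titled control cluster gave the calls of the whole class, with Apoe, Apoc1 and Plin2 higher against 12% of all genes and Trem2 lower against 28.4%. Astrocyte-like clusters differed in Fabp5, at 1500 CPM in the cluster led by Hapln1 and Nr2e1, 1293 CPM in that led by Sfrp5 and Agt and 268 CPM in that led by Tnc and Gdf10. Apoe was lowest in the Tnc and Gdf10 cluster too, at 13242 CPM, against 26493 CPM in the Hapln1 and Nr2e1 cluster and 23622 CPM in the Sfrp5 and Agt cluster.

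**Figure D5:**
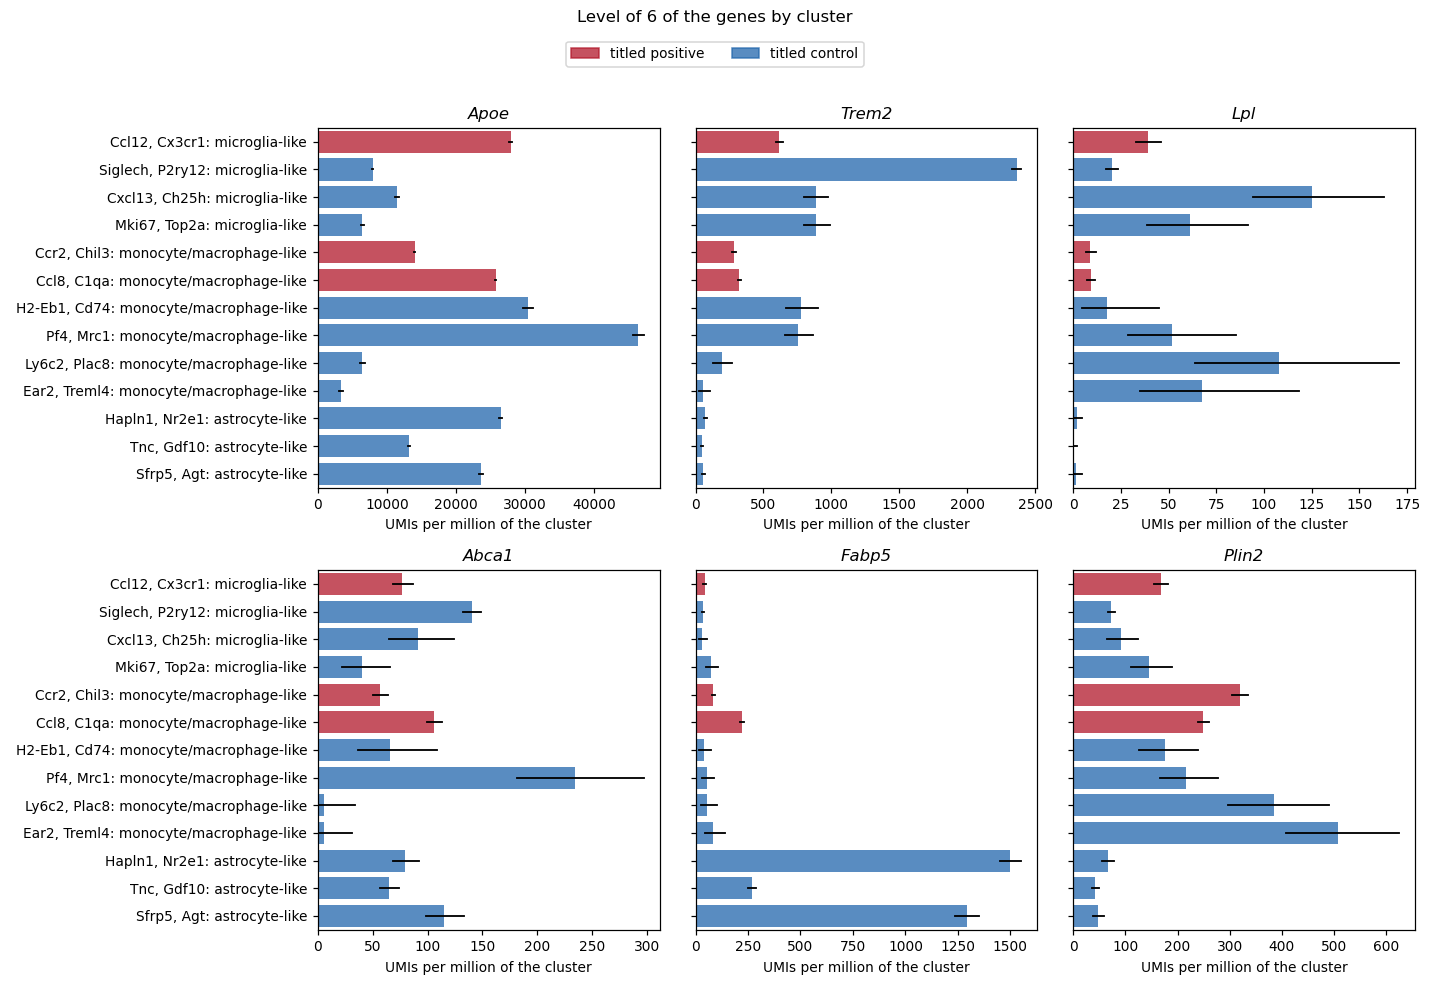
CPM of 6 genes in the clusters of microglia-like, monocyte or macrophage-like and astrocyte-like cells, as bars from 0 with exact 95% counting intervals, titled positive clusters above titled control ones within a class. Clusters are named by a pair of their leading genes. Apoe spans from 3311 to 46361 CPM among the titled control macrophage-like clusters, and Lpl is highest in the microglia-like cluster led by Cxcl13 at 125 CPM.

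Detection of Trem2 and of lipid genes was also compared within single cells. Among thinned titled positive microglia-like cells a Trem2 UMI was found in 62.1% (54.4 to 69.3%) of 174 cells with a Plin2 UMI and in 65.0% (60.6 to 69.3%) of 472 cells without one. Apoc1 was found in 33.5% (29.0 to 38.3%) of 415 cells with a Trem2 UMI and 29.4% (23.6 to 35.8%) of 231 cells without. Both pairs of intervals overlapped. The widest gap between cells with and without Plin2 was in titled control monocyte or macrophage-like cells, where Trem2 was found in 27% (17.4 to 38.6%) of 74 cells with a Plin2 UMI and 46.3% (38.0 to 54.7%) of 147 cells without. Those intervals also overlapped, by a narrow margin, and cells of the clusters described above are mixed in both counts.

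The wider lipid genes of microglia-like cells were counted in 10 lists, beside a median log2 ratio of −0.41 over all genes compared, of which 10.7% were higher and 28% lower. Of 7 apolipoproteins and lipoprotein-bound proteins compared, 3 were higher, with Apoc4 beside Apoe and Apoc1 at 60 UMIs in titled positive and 1 UMI in titled control cells, and 2 were lower, with a median of 0.91. The phospholipid transfer protein gene Pltp was among the lower ones, at 24.9 CPM in titled positive and 72.9 CPM in titled control cells. Of 11 lipoprotein and scavenger receptors, 4 were higher and 2 lower, with a median of 0.22. The scavenger receptors Cd36, at 196 CPM in titled positive and 10.3 CPM in titled control cells, and Msr1, at 247 CPM in titled positive and 14.2 CPM in titled control cells, led them. Of 11 lipid droplet genes 3 were higher and 0 lower, with a median of 0.20, and Hilpda, which restrains droplet lipolysis, was at 24.9 CPM in titled positive and 10.5 CPM in titled control cells.

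The remaining lists of microglia-like cells had more lower than higher genes, as all genes did at 28% lower and 10.7% higher. With so few genes a list, shares near these are no result about the list. Of 18 cholesterol synthesis genes 0 were higher and 6 lower, with a median of −0.56, and Hmgcs1, an early enzyme of the pathway, was at 20.5 CPM in titled positive and 58.7 CPM in titled control cells. Of 9 genes of the sterol and fatty acid receptors LXR and PPAR and their targets, 0 were higher and 4 lower, with a median of −0.75. Scd2, a desaturase, was at 79.6 CPM in titled positive and 302 CPM in titled control cells. Of 6 ABC lipid transporters 0 were higher and 2 lower, Abca9 and Abca2, with a median of −0.20. Of 9 genes on the list named TREM2 signalling, 2 were higher, the adaptor gene Hcst and Treml2, listed as a gene of the same receptor family. On that list 3 were lower, Trem2, Pik3cg and the kinase gene Syk, with a median of −0.52. Of 9 hydrolysis genes 1 was higher and 3 lower, with a median of −0.62, and Mgll, which splits monoacylglycerol, was at 3.04 CPM in titled positive and 57.3 CPM in titled control cells. Of 10 genes of fatty acid binding and activation 2 were higher and 3 lower, with a median of −0.28. Of 9 lysosomal lipid export genes 0 were higher and 1 was lower, Npc1, with a median of 0.21, and its partner Npc2 was at 2335 CPM in titled positive and 1345 CPM in titled control cells.

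Monocyte or macrophage-like cells were counted in the same lists, beside a median of −0.07 over all genes compared, of which 15.1% were higher and 15.7% lower. The cells of the libraries came from different clusters, whose part in these values was not tested. Apolipoproteins had 2 higher and 3 lower of 7, with a median of 0.06. Apoc4 was again higher, with 249 UMIs in titled positive and 0 in titled control cells, at least 6.99-fold by the limit that 0 UMIs allow, while Pltp was at 51.4 CPM in titled positive and 652 CPM in titled control cells. Cd36 was lower here, at 5.0 CPM in titled positive and 126 CPM in titled control cells, and Msr1 was higher, at 392 CPM in titled positive and 176 CPM in titled control cells. Receptors had 1 higher and 2 lower of 12, with a median of 0.03. Lipid droplet genes had 3 higher and 0 lower of 10, with a median of −0.14. Hilpda was at 154 CPM in titled positive and 17.8 CPM in titled control cells, and Dgat2, which makes triglyceride, at 54.7 CPM in titled positive and 13.6 CPM in titled control cells. Fatty acid genes had 1 higher and 5 lower of 11, with a median of −0.66, and Fabp4, a carrier of macrophages and fat cells, was at 1.14 CPM in titled positive and 50.9 CPM in titled control cells. Cholesterol synthesis had 0 higher and 5 lower of 17, with a median of −0.81, and lysosomal export 1 higher and 1 lower of 9, with a median of 0.44. The ABC transporters had 0 higher and 2 lower of 6 (median −0.42), TREM2 signalling 2 higher and 1 lower of 9 (median −0.34), hydrolysis 2 higher and 2 lower of 8 (median −0.73), and LXR and PPAR 0 higher and 2 lower of 10 (median −0.28).

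Across the 18 class sums, which come from 2 libraries and share depth and free RNA within each, the genes most like Apoe among 5398 genes included Psap (Pearson r of log2 CPM 0.92), Gm2a (0.88), Naaa (0.87) and Fuca2 (0.85). Those most like Trem2 included Csf1r (0.99), Ly86 (0.96), P2ry13 (0.96) and Ppfia4 (0.96), of which P2ry13 was on the microglia marker list. Trem2 itself had an r of 0.75 with Apoe over the same sums.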

How the data were processed

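Raw UMI counts per gene and cell barcode were deposited by the authors, 1 matrix per library. The submitters' processing notes name Cell Ranger and GRCm38; how cells were called, which annotation was used and whether strand was used is not given in the sources used here. Barcodes under 200 genes or over 20% mitochondrial UMIs were removed (5 titled positive and 11 titled control barcodes), and doublet calls by scrublet, as run in scanpy, removed 300 titled positive and 600 titled control barcodes. Both libraries were clustered together with scanpy 1.11.5 (2000 variable genes, 30 components, 15 neighbours, Leiden resolution 1, then sub-clusters), with the 9 genes and all lipid list genes left out, and clusters were named from marker lists by thresholds set after the clusters were seen. Clusters with markers of more than 1 type (109 titled positive and 423 titled control cells) were set aside as mixed.

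UMIs were summed per class and library, divided by the class total and given as CPM with exact Poisson intervals. Log2 ratios used a pseudocount of 0.5 UMIs and conditional exact binomial intervals, and shares used Clopper-Pearson intervals. UMIs of 1 cell are not independent samples of a condition, and intervals and limits from 0 UMIs (3 counts) cover counting error only. Free RNA in a class was put at the median, over marker lists of other types, of the class level as a percentage of the library level. In simulated counts with genes changed 4-fold between microglia-like cells of the libraries, 50 of 50 were called in each direction, and of those 2-fold higher 25 of 50. Of unchanged genes, 2.55% were called in microglia-like and 6.64% in macrophage-like cells. These counts held counting error alone, so the rates leave out differences between libraries, cells captured and free RNA. The changed genes had at least 50 expected UMIs in the smaller sum, so thinner genes were not covered.

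The 9 genes and the lists were chosen with earlier results of these data known. Named list genes are up to 3 with the highest and 3 with the lowest ratio per list among those with at least 50 UMIs, with a few examples printed; genes likest Apoe and Trem2 are the 5 with the highest r among genes with at least 100 CPM in 1 class sum, some of which are not reported here. Alternatives covered doublets, clustering, naming, free RNA, thinning, averaging, centring and the UMI minimum; the main titled control microglial cluster alone was added after seeing the data. Promoter letters are RefSeq's; proteins were not used here. Python 3.11.15 was used with numpy 2.4.6 and scipy 1.17.1.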

Additional observations from a re-analysis of the deposited data

Results flagged for a closer look

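Lpl was called in opposite directions in classes of the same library pair. Its log2 ratio of titled positive over titled control was −2.81 in monocyte or macrophage-like cells, with an interval of −3.23 to −2.38, and 3.18 in endothelial cell-like cells, with an interval of 2.27 to 4.23. Each rests on 1 library per title, and the difference between the classes was not tested. The macrophage-like cells of the libraries came from different clusters, whose part in the ratio was not tested either. The endothelial value rests on 33 UMIs in titled positive and 14 in titled control cells. The titled control level there, 4.53 CPM, lay inside the range of its free RNA estimate (0.831 to 30.6 CPM over lists). The top of that range comes from a list at 333% of the library level and sets no bound.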

How the results depend on the processing

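In microglia-like cells the same 4 calls held under all 12 other settings tried and with the main titled control cluster alone: the log2 ratio lay between 1.66 and 1.97 for Apoe, 3.38 and 3.85 for Apoc1, 1.05 and 1.27 for Plin2, and −1.98 and −1.73 for Trem2. Of the microglial ratios inside 2-fold, Lpl reached 1.04 with each cell named by its own markers, and Fabp5 changed sign under 2 alternatives and reached 7.99 with estimated free RNA subtracted. In monocyte or macrophage-like cells the ratio of Lpl lay between −2.95 and −2.05 and that of Apoc1 between 1.17 and 1.75. The count of higher genes there was 2, not 1, with each cell named by its own markers, with estimated free RNA subtracted, thinned to 2000 or 1000 UMIs or as a mean of per-cell CPM, Fabp5 being added each time, and thinned to 1000 UMIs 0 were lower, since fewer than 10 Lpl UMIs were left in titled control cells.

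In oligodendrocyte-like cells the count of higher genes was 1 with cells named by own markers, with free RNA subtracted and at a minimum of 50 UMIs. The count of lower genes was 0 with doublets kept and with 5% free RNA subtracted, and 1 with estimated free RNA subtracted, under both thinnings, with per-cell means and at a minimum of 50 UMIs. In endothelial cell-like cells 0 were higher under both thinnings and at a minimum of 50 UMIs, and 2 with no minimum; 3 were lower with doublets kept, 0 with cells named by own markers, and 2 under both thinnings, with per-cell means and with centred ratios. Subtracting estimated free RNA turned the sign of 13 of 45 ratios. Of these, 6 had been called, namely Apoc1 (−0.28), Lpl (2.56), Trem2 (2.56) and Plin2 (−5.25) in oligodendrocyte-like cells, Trem2 in endothelial cell-like cells (2.49) and Plin2 in T cell-like cells (−0.91), and 5% subtracted turned 4 of 45, of which the called ones were Lpl (0.14) and Trem2 (0.095) in oligodendrocyte-like cells, all of them at levels close to or under the estimated free RNA in 1 or both libraries. Endothelial Lpl stayed between 2.53 and 6.71, the last after thinning to 1000 UMIs, where too few UMIs were left for a call. Leaving out a replicate was not done, with 1 library per title. No paired analysis was possible because each title has 1 library. Depth limits Lpl in most classes and Apoc1 in titled control macrophage-like cells, where it had 28 UMIs.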
